A study of Mus musculus with 6 samples.

Results

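The replication-dependent histone genes encode the bulk of the H1, H2A, H2B, H3 and H4 proteins that package newly copied DNA. In this series they were taken as the protein-coding rows of the expression table whose symbols begin with the cluster names of these genes, in the older form (Hist1h, Hist2h) or the newer form (H1f, H2ac, H2bc, H3c, H4c) followed by a number. This gave 62 of 33300 features. The rule reads names and biotypes alone, though the set was picked with earlier results of these data known. Of the 62 genes, 58 lie in the known histone clusters, 53 of them on chromosome 13 and 5 on chromosome 3 of mm10. The other 4, H1f0, H1f7, H1f8 and H1f10, lie elsewhere; H1f0 and H1f10 are replacement linker histones made outside S phase and H1f7 and H1f8 belong to germ cells, so the label does not hold for them. They are kept apart in the sums below. The rule also misses 3 genes renamed out of these families, H2bu2, H2aw and H4f16, and 4 name matches are pseudogenes that it leaves out.

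The study compared cells of 3 SLE1.2.3 mice with cells of 3 control mice. SLE1.2.3 is a lupus-prone line in which the Sle1, Sle2 and Sle3 intervals are combined; the labels call the controls WT and name no strain. All 6 cultures began with naive CD4 T cells of female mice of matched age, whose age is not given in the labels used here. The cells were stimulated on plates coated with antibodies to CD3 and CD28 and collected on day 5. The medium held TGF-β1 at 1 ng/mL, IL-23 at 10 ng/mL, IL-6 at 50 ng/mL and IL-1β at 10 ng/mL, with antibodies to IL-4 and to interferon-γ at 10 µg/mL each. These conditions drive cells towards Th17, the helper T cell type that makes interleukin-17. Libraries were made from polyadenylated RNA, and levels are given in FPKM, reads per kilobase of gene length and per 1000000 reads assigned to genes.

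Replication-dependent histone genes have no introns and are transcribed mainly in S phase, in nuclear bodies organised by NPAT. Their main messages end in a short stem-loop, which is bound by the stem-loop binding protein SLBP and cut by a dedicated machinery, and they carry no poly(A) tail. Some of these genes also give longer, polyadenylated transcripts, above all in cells that have left the cycle. A library made from polyadenylated RNA therefore holds only a part of histone RNA, and the levels below are not the total histone message of the cells.

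The stem-loop is shown because it is the end that keeps most of these messages out of such a library. A search of the GENCODE M21 transcripts for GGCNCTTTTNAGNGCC on the transcript strand found it in 36 of the 62 genes and in 49 of 141767 transcripts, a share of 0.0346%. The 36 matches came in 5 forms, written below as DNA from 5′ to 3′ with the 4 bases of the loop in capitals.
21 genes of the H1, H2A, H2B and H3 families: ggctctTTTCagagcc
6 H4 genes, Hist1h4m among them: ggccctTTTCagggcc
6 genes of the H1, H2B and H3 families, H2bc12 and H3c3 among them: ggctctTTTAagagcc
H4c9 and H4c14: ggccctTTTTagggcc
H2ac20: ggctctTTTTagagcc
The matched H4 genes have 2 forms, and neither occurs in another family. The M21 transcripts of the remaining 26 genes held no match to these letters, which says nothing of a stem-loop beyond the annotated end.

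Control mouse 3 stood apart from the other 5 libraries in some RNA without a poly(A) tail. In units of 1000000 reads assigned to genes, the SLE1.2.3 libraries had 83.5, 61.7 and 75.1 and the control libraries 50.3, 56.8 and 29.7, so that control mouse 3 had the fewest. Features annotated as ribosomal RNA took 0.0286% to 0.0422% of the reads in SLE1.2.3 libraries, against 0.0428%, 0.0683% and 2.18% in control libraries 1, 2 and 3. Rn7sk, a small nuclear RNA that is not polyadenylated, had 17.7, 21.01 and 14.8 FPKM in SLE1.2.3 cells, against 5.82, 7.18 and 370 FPKM in cells of control mice 1, 2 and 3. Of 8 such RNAs listed by name, 5 matched a feature and Rn7sk was the only one above the level needed for a test. The other 4, Rpph1, Rny1, Rny3 and Rn7s2, were listed at 0 in control mouse 3. They did not exceed 0.289 FPKM in any library, too low to tell the libraries apart. Features annotated as snRNA took 0.00136% to 0.00189% of reads in SLE1.2.3 libraries, against 0.00159%, 0.00142% and 0.00224% in control libraries 1, 2 and 3. Here too control mouse 3 was the highest, by a far smaller margin. The histone counts and calls below are therefore given with and without control mouse 3.

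Other cell types differed between the groups too. Markers of γδ T cells summed to 53.7, 242 and 538 FPKM in SLE1.2.3 cells and to between 2.71 and 3.06 FPKM in control cells, and 6 of 7 were called higher, 2 of 7 without control mouse 3; Trdv4 was listed at 0 in control mice 1 and 3. Markers of CD8 T and NK cells summed to 49.3, 205 and 333 FPKM in SLE1.2.3 cells, against 12.8 to 13.8 FPKM in control cells, with 4 of 6 called higher, and 1 without control mouse 3. For B and plasma cells the sums were 127 to 184 FPKM in SLE1.2.3 cells and 56.1 to 63.2 FPKM in control cells, with 3 of 4 tested markers higher, and 1 without control mouse 3. Those of myeloid and red cells were 2.88 to 10.2 FPKM in SLE1.2.3 cells and 7.11 to 8.72 FPKM in control cells, with 1 of 2 tested markers lower, also without control mouse 3. Cd4 itself had 257, 144 and 71.6 FPKM in SLE1.2.3 cells, against 246, 264 and 253 FPKM in control cells. The Th17 genes Rora, Il23r and Il17a were called higher in SLE1.2.3 cells. Among all tested genes, 9.65% were called higher and 5.58% lower. In bulk RNA, fewer cells of a type and less RNA per cell cannot be told apart, and the part of these other cells in the histone results was not tested.

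The cluster histone genes together had lower levels in SLE1.2.3 cells, and control mouse 3 made much of the distance. Their FPKM values summed to 102, 106 and 106 in SLE1.2.3 cells, against 132, 146 and 332 in cells of control mice 1, 2 and 3. The SLE1.2.3 sums lay close together and below all 3 controls, and control mouse 3 was more than 2-fold above the other 2 controls. The SLE1.2.3 mean was 0.515 times the control mean, and 0.753 times the mean of control mice 1 and 2. No test is given for such sums, since the members were chosen as a group.

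By summed FPKM, and with control mouse 3 set aside, the H3 genes were furthest apart and the H1 genes least. The 10 H3 genes summed to 18.3, 17.2 and 17.9 FPKM in SLE1.2.3 cells, against 27.5, 31.5 and 84.7 FPKM in control cells. The 15 H2B genes summed to 23.7, 23.1 and 23.4 FPKM in SLE1.2.3 cells, against 34.0, 33.1 and 71.4 FPKM in control cells. For the 15 H2A genes the sums were 27.6, 30.4 and 27.6 FPKM in SLE1.2.3 cells and 31.7, 39.5 and 80.4 FPKM in control cells. In each of these 3 families the SLE1.2.3 sums lay below all control sums. The 12 H4 genes summed to 22.3, 21.2 and 21.6 FPKM in SLE1.2.3 cells, against 25.7, 28.0 and 57.1 FPKM in control cells, again without overlap. The 6 H1 genes of the clusters gave 10.7, 13.8 and 15.3 FPKM in SLE1.2.3 cells and 12.8, 14.4 and 38.3 FPKM in control cells, and here the groups overlapped. Relative to control mice 1 and 2, the SLE1.2.3 mean was 0.603 for H3, 0.698 for H2B, 0.802 for H2A, 0.809 for H4 and 0.976 for H1. Gene by gene the order was different, since H1f2 carries most of the H1 sum. The median ratio over the tested genes of a family was 0.404 for H1, 0.619 for H3, 0.642 for H2B, 0.653 for H4 and 0.729 for H2A. The 5 tested H1 genes include H1f0 from outside the clusters. Of them, H1f1, H1f4 and H1f5 averaged under 1 FPKM in SLE1.2.3 cells. They passed the filter described below through the controls, which favours a low ratio, so the H1 median is not a fair rank. Other families hold such genes too.

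**Figure D1:**
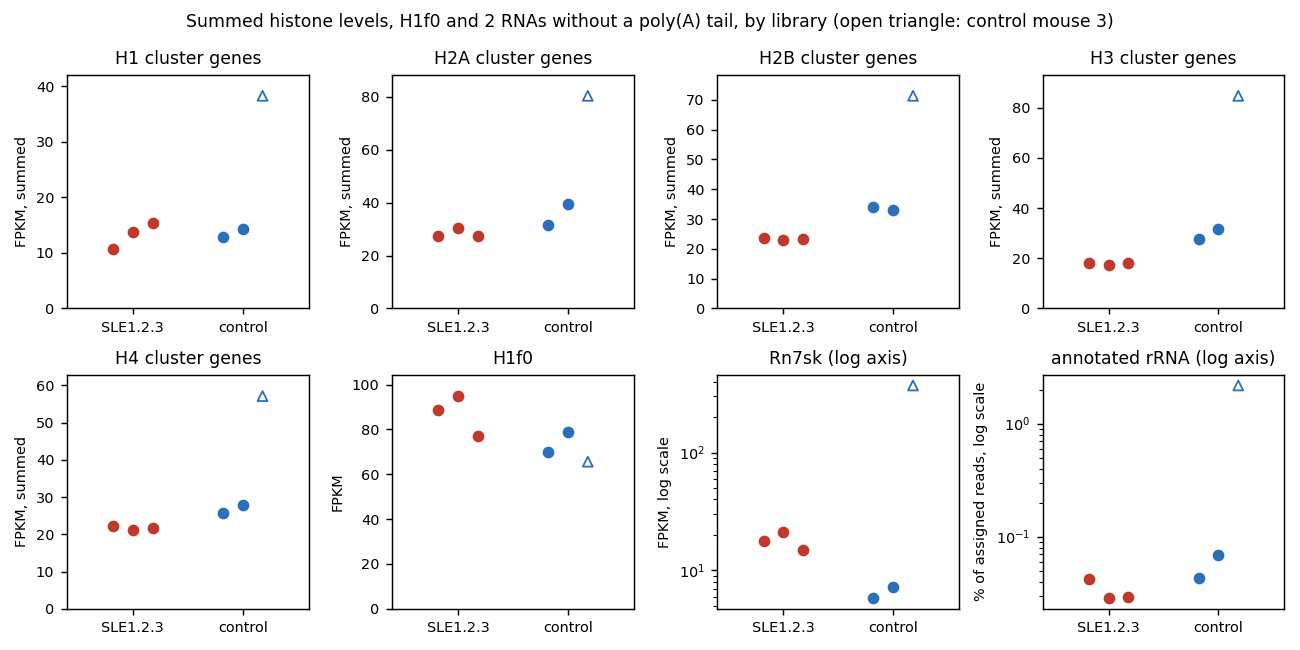
Summed FPKM of the cluster histone genes of each family, FPKM of H1f0 and of Rn7sk, and the percentage of assigned reads on annotated ribosomal RNA, one point per library with SLE1.2.3 mice in red and control mice in blue. The open triangle is control mouse 3, which is highest in every panel but that of H1f0; the last 2 panels have log axes.

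Genes were tested where the mean over the 6 libraries was at least 1 FPKM, with limma on log2(FPKM + 1). They were called at an adjusted p under 0.05 over all tested genes. Unless another scale is named, log2 changes of genes are on log2(FPKM + 1), which understates the change of low genes. Of the 62 histone genes 39 were tested, 6 were called lower in SLE1.2.3 cells and 1 higher, and 32 did not pass. Among all 11378 tested genes, 15.2% were called, 5.58% lower and 9.65% higher. The 6 lower calls are 15.4% of the tested histone genes, and the 1 higher call is 2.56%. The log2 change was negative in 34 of the 39 and positive in 5, with a median of -0.76, against a median of 0.01 over all tested genes. In 27 of the 39 all SLE1.2.3 values lay below all control values, a separation seen in 17.7% of tested genes; 1 histone gene separated the other way, against 23.9% of tested genes. These counts lean on the filter, because 13 of the 39 had a mean under 1 FPKM in SLE1.2.3 cells and passed through the controls, and 1, H2bc21, passed only through SLE1.2.3 cells. The 13 include H1f1 and Hist1h4m, both called lower, with means of 0.537 and 0 FPKM in SLE1.2.3 cells. Both were also called by limma with no filter, at an adjusted p of 0.0411 and 0.0288. With no filter, 33 of the 62 separated with SLE1.2.3 lower, against 10.9% of the 30034 features detected in any library.

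The calls changed when control mouse 3 was left out. Then 32 histone genes were tested, 3 were called lower, H2bc11, H2bc12 and H3c1, and 0 higher. Over all 11388 genes tested in that fit, 2.39% were called, 0.773% lower and 1.62% higher. The median log2 change of the histone genes was -0.33, with 24 negative and 8 positive. In 27 of the original 39 the 3 SLE1.2.3 values lay below those of control mice 1 and 2, against 22.9% of all tested genes, and in 2 they lay above them, against 26.3%. Of the 39, 7 lost the filter without this library. The count of 7 calls also moved when another mouse was left out. It was 7, 2 and 3 without SLE1.2.3 mouse 1, 2 or 3, and 2 and 1 without control mouse 1 or 2. The count over all genes moved too, from 206 calls without SLE1.2.3 mouse 2 to 3705 without SLE1.2.3 mouse 1.

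**Figure D2:**
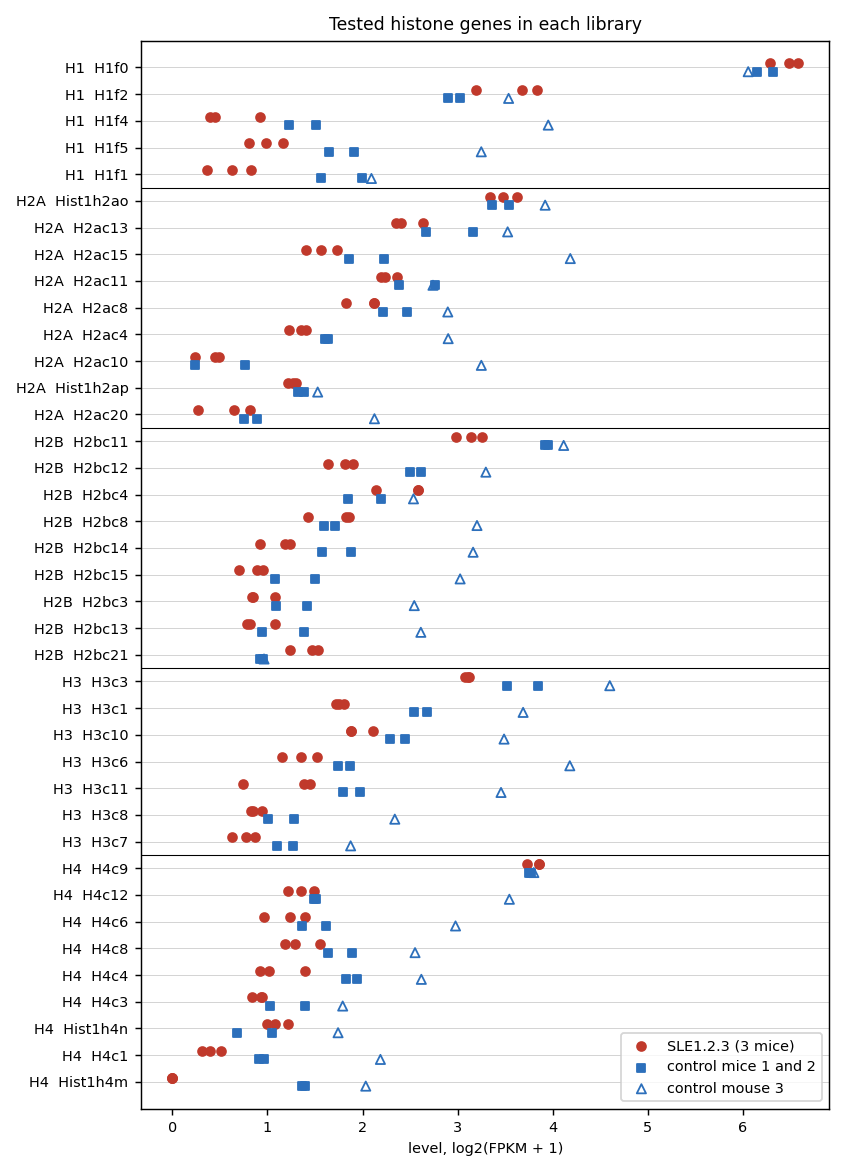
Level of each of the 39 tested histone genes on the log2(FPKM + 1) scale, with a red circle for each SLE1.2.3 mouse, a blue square for control mice 1 and 2 and an open triangle for control mouse 3, grouped by family. The triangle is the highest point in 33 of the 39 rows. The H3 rows are all without overlap, SLE1.2.3 lower, as are 17.7% of all tested genes.

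Linker histones of the H1 family bind DNA between nucleosomes. H1f1 was the H1 gene called, with 0.776, 0.547 and 0.287 FPKM in SLE1.2.3 cells, against 1.96, 2.97 and 3.27 FPKM in control cells. Every control value of H1f1 lay above every SLE1.2.3 value. H1f1 fell by 1.27 ± 0.18 on the log2(FPKM + 1) scale (SE, n = 3 each) at an adjusted p of 0.0121, and at 0.0578 without control mouse 3. With 0.1 added in place of 1, its log2 change was -2.20.

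H1f2, the most abundant H1 gene of the clusters, had 8.13, 11.8 and 13.3 FPKM in SLE1.2.3 cells, against 7.14, 6.45 and 10.6 FPKM in control cells. The groups overlapped, the log2 change was 0.42 and the adjusted p 0.238. H1f5 had 0.742, 0.982 and 1.236 FPKM in SLE1.2.3 cells and 2.14, 2.75 and 8.51 FPKM in control cells, and did not pass, with a log2 change of -1.29 and an adjusted p of 0.0785. H1f4 had the lowest log2 change of all on the log2(FPKM + 1) scale, -1.64 ± 0.70, with an adjusted p of 0.154. With 0.1 added in place of 1, Hist1h4m at -4.39 lay below H1f4 at -2.58. The values of H1f4 were 0.888, 0.319 and 0.359 FPKM in SLE1.2.3 cells and 1.34, 1.84 and 14.5 FPKM in control cells. Control mouse 3 lay far above the rest. Against control mice 1 and 2 alone, the mean of H1f4 in SLE1.2.3 cells was 0.328 times theirs. Its exons overlap those of H2bc6 on the same strand. Outside the clusters, the replacement histone H1f0 was the most abundant of the 62 genes, with 88.6, 94.9 and 77.0 FPKM in SLE1.2.3 cells, against 70.0, 78.7 and 65.6 FPKM in control cells. The groups overlapped, and the log2 change of 0.28 ± 0.11 did not pass (adjusted p 0.122). H1f10 was under the filter, with 0.758, 0.506 and 0.602 FPKM in SLE1.2.3 cells and 1.01, 0.883 and 0.663 FPKM in control cells.

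H2A pairs with H2B in the nucleosome, and none of the 9 tested H2A genes was called, although all 9 log2 changes were negative, between -1.19 and -0.13. Hist1h2ao, the most abundant of them, had 9.14, 11.3 and 10.2 FPKM in SLE1.2.3 cells and 9.27, 10.6 and 14.2 FPKM in control cells, with full overlap of control mice 1 and 2. Its log2 change was -0.13 with an adjusted p of 0.591, and turned to 0.03 without control mouse 3 (adjusted p 0.882). H2ac13 had 4.12, 5.20 and 4.30 FPKM in SLE1.2.3 cells, against 5.36, 7.93 and 10.5 FPKM in control cells, an adjusted p of 0.0857. H2ac11 had 3.58, 3.71 and 4.14 FPKM in SLE1.2.3 cells, against 4.22, 5.77 and 5.69 FPKM in control cells, an adjusted p of 0.0855. In both the groups did not overlap. H2ac15, with 1.65, 2.31 and 1.97 FPKM in SLE1.2.3 cells and 2.63, 3.67 and 17.2 FPKM in control cells, had an adjusted p of 0.200 and a control mouse 3 far above the rest. H2ac10 was the extreme of this kind, with control mouse 3 at 19.5 times the mean of control mice 1 and 2. H2ac1, a histone gene of the testis, was listed at 0 in all 6 libraries. Each of the 15 H2A genes overlaps an exon of another gene on the other strand, as few genes of the other families do. With the strand setting of the counting not given, reads of those partners may be part of the H2A levels.

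H2B genes gave 3 of the 7 calls. H2bc11, also named Hist1h2bj, lies at chr13:22043214-22043676 on the plus strand and had 7.82, 6.90 and 8.54 FPKM in SLE1.2.3 cells, against 14.5, 14.1 and 16.3 FPKM in control cells. These rest on 302, 197 and 297 reads in SLE1.2.3 libraries and 337, 371 and 225 reads in control libraries. The 3 control values lay close together, control mouse 3 included, well above the SLE1.2.3 values. H2bc11 fell by 0.87 ± 0.09 on the log2 scale (SE, n = 3 each) at an adjusted p of 0.0069, and by 0.81 at an adjusted p of 0.0365 without control mouse 3. It is the histone gene that passed under all 15 alternatives tried. Other genes hold 59.4% of the 50-base words of its transcript, so its reads may be shared with other H2B genes.

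H2bc12, a neighbour of H2bc11, had 2.72, 2.11 and 2.52 FPKM in SLE1.2.3 cells, against 4.67, 5.14 and 8.83 FPKM in control cells. It fell by 1.02 ± 0.21, adjusted p 0.0293, and by 0.78 without control mouse 3, adjusted p 0.0447. Of its transcript, 74.2% of the 50-base words also occur in other genes, so reads may be shared with other H2B genes. H2bc21 of the chromosome 3 cluster, also named Hist2h2be, went the other way, with 1.36, 1.88 and 1.76 FPKM in SLE1.2.3 cells and 0.895, 0.934 and 0.950 FPKM in control cells. It rose by 0.46 ± 0.11, adjusted p 0.0357, and did not pass without control mouse 3, where the log2 change was 0.47 and the adjusted p 0.107. None of its 50-base words occurs in another gene, and its annotated transcript is 2620 bases long with AATAAA near the end and no match to the stem-loop. H2bc4 had 4.99, 4.99 and 3.41 FPKM in SLE1.2.3 cells and 3.59, 2.61 and 4.80 FPKM in control cells, overlapping, with an adjusted p of 0.437.

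H3 forms the core of the nucleosome with H4. All 7 tested H3 genes had every SLE1.2.3 value below every control value, as had 17.7% of all tested genes. Of the 7, 1 was called, and 5 kept a mean high enough for a test without control mouse 3. Some passed the filter through the controls, which favours such a separation. H3c1 had 2.38, 2.31 and 2.49 FPKM in SLE1.2.3 cells, against 4.84, 5.41 and 11.9 FPKM in control cells. H3c1 fell by 1.21 ± 0.29 (SE, n = 3 each), adjusted p 0.0425, and by 0.85 without control mouse 3, where its adjusted p was lower, at 0.0261. H3c3, the most abundant H3 gene, had 7.46, 7.67 and 7.63 FPKM in SLE1.2.3 cells and 10.4, 13.4 and 23.3 FPKM in control cells. The SLE1.2.3 values were nearly equal and the controls spread, and its log2 change of -0.89 did not pass, with an adjusted p of 0.0664 and of 0.0697 without control mouse 3. H3c10 had 2.68, 3.31 and 2.69 FPKM in SLE1.2.3 cells and 4.45, 3.90 and 10.2 FPKM in control cells, adjusted p 0.130. H3c6 had 1.88, 1.22 and 1.55 FPKM in SLE1.2.3 cells and 2.35, 2.65 and 17.1 FPKM in control cells, adjusted p 0.213.

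All H4 genes encode the same protein, and the changes varied among them. H4c9, the most abundant, had 12.3, 13.5 and 13.5 FPKM in SLE1.2.3 cells, against 12.5, 12.6 and 12.95 FPKM in control cells. All 6 values lay within a narrow range, control mouse 3 included, and the log2 change was 0.04 ± 0.06 with an adjusted p of 0.678. H4c4 had 1.63, 0.897 and 1.03 FPKM in SLE1.2.3 cells, against 2.85, 2.55 and 5.14 FPKM in control cells. It fell by 1.02 ± 0.24, adjusted p 0.0382, and did not pass without control mouse 3 (adjusted p 0.0808).

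Hist1h4m, at chr13:21811746-21812147, was listed at 0 in all 3 SLE1.2.3 libraries and had 1.63, 1.58 and 3.10 FPKM in control cells. That is 0 reads in SLE1.2.3 libraries, against 33, 36 and 37 reads in control libraries 1, 2 and 3. With a floor of 3 reads over the group, the level per assigned read was at least 56.9-fold lower in SLE1.2.3 cells. It was called at an adjusted p of 0.0083, and had too low a mean to be tested once any 1 control was left out. Its transcript shares 89.8% of its 50-base words with other genes, the closest being Hist1h4n. Hist1h4n had 1.12, 1.32 and 0.991 FPKM in SLE1.2.3 cells and 0.601, 1.07 and 2.35 FPKM in control cells, with a positive change once control mouse 3 was left out. The 2 genes together gave 1.12, 1.32 and 0.991 FPKM in SLE1.2.3 cells, against 2.23, 2.64 and 5.44 FPKM in control cells.

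**Figure D3:**
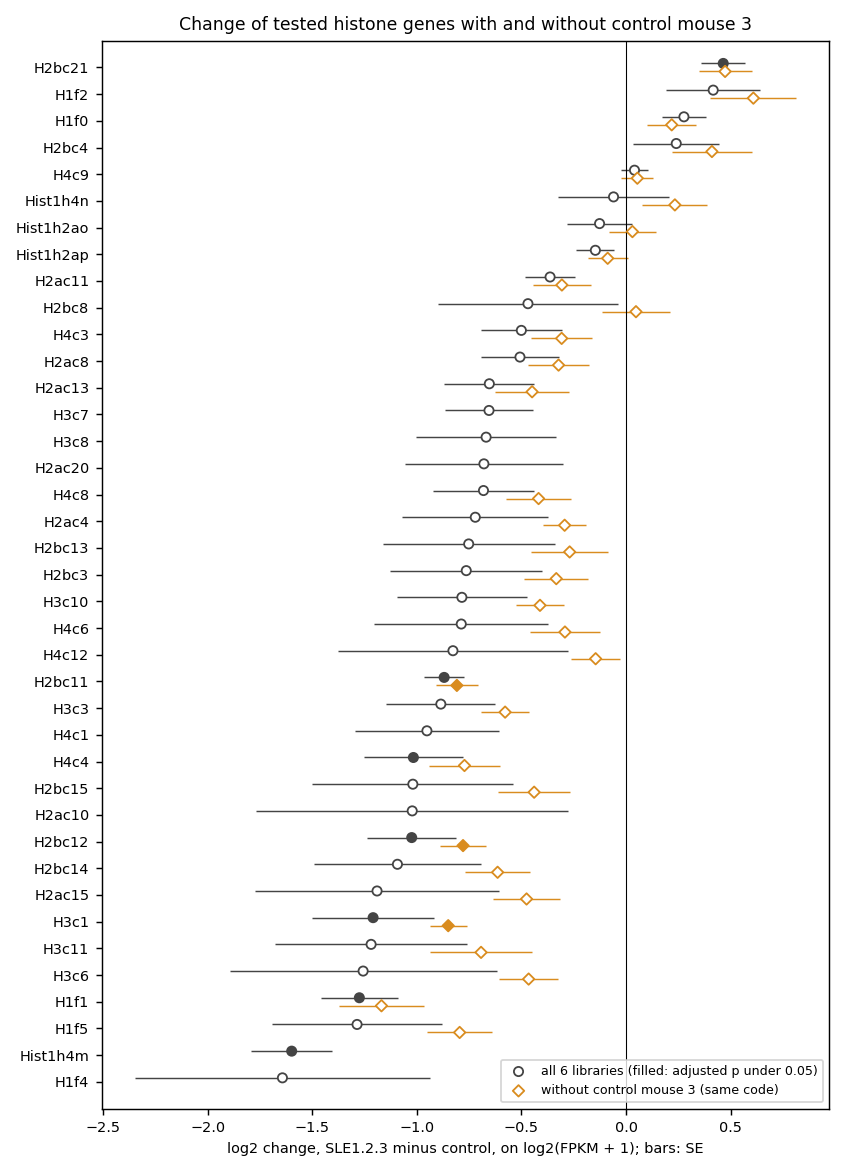
Log2 change of each tested histone gene, SLE1.2.3 minus control on the log2(FPKM + 1) scale, with its SE as a bar, from all 6 libraries (black circles) and without control mouse 3 (orange diamonds, where still tested); filled symbols have an adjusted p under 0.05. The orange points lie nearer to 0 for most genes, and the filled ones are H2bc11, H2bc12 and H3c1.

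How much control mouse 3 held of each gene varied widely among the members. It was at least 2-fold above the mean of control mice 1 and 2 in 22 of the 39 tested histone genes, or 56.4%, against 126 of all 11378 tested genes, or 1.11%. The filter favours this, since 7 of the 39 passed it only through control mouse 3. With the filter set on the other 5 libraries, a choice made after seeing the data, it was 16 of 32 histone genes, or 50%, against 99 of 11388 genes, or 0.869%. The median ratio was then 1.99 for the histone genes and 0.965 for all genes. The ratio was 0.883 for H1f0, 1.03 for H4c9, 1.04 for H2bc21 and 1.14 for H2bc11. The part of this library's ribosomal RNA and Rn7sk in its histone levels was not tested.

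The small group at 22.04 Mb of chromosome 13, where H2bc11, H2bc12, H4c9, H2ac11 and H2ac12 lie, held the H2bc11 and H2bc12 calls. Its sum was 26.9, 26.4 and 29.0 FPKM in SLE1.2.3 cells, against 36.0, 38.2 and 45.5 FPKM in control cells, without overlap. H2bc11 and H2ac11 stand head to head, and their promoter windows, each from 250 bases before the start to 50 after it, overlap by 252 bases. H2bc11 passed and H2ac11 did not; the difference between the 2 changes was not tested. There are 9 such H2A and H2B pairs among the members. Since no H2A gene was called, no pair could have both genes called. In 4 of the 9 both genes were tested. The H2bc11 window is printed because this gene gave the most stable call and because it overlaps the window of the H2A gene; it is chr13:22042948-22043247 on the plus strand of GRCm38.p6, from RefSeq, with each CCAAT on either strand in capitals.
H2bc11: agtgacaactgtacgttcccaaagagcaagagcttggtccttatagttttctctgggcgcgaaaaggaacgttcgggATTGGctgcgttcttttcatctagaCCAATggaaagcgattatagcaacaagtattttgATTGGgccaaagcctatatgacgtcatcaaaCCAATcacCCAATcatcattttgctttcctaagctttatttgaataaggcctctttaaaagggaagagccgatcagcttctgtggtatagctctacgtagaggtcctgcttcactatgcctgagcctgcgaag
It holds 5 copies of CCAAT, the letters bound by NF-Y at many histone promoters, and no TATAAA or ATTTGCAT, the octamer bound by OCT1 at H2B promoters. Of the 56 members with a RefSeq window, 45 held CCAAT on either strand, or 80.4%, against 37.9% of all 27025 windows. TATAAA was in 31, or 55.4%, against 14.2%, and ATTTGCAT in 10, or 17.9%, against 1.75%. None of the 3 motifs contains another. A match is a description of sequence and not a bound site.

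Genes that act on histone RNA and histone proteins had smaller median changes than the histone genes. Among all tested genes, 9.65% were called higher and 5.58% lower, the shares to set beside the counts here. Of 19 tested genes for histone gene transcription and message processing, 2 were called higher, near the share of all genes, and 0 lower. Their median log2 change was -0.08, and 0 passed without control mouse 3. The 2 called higher were Mif4gd, a partner of SLBP in translation, and the cap-binding gene Ncbp2 (adjusted p 0.0407). Mif4gd had 66.2, 65.2 and 67.6 FPKM in SLE1.2.3 cells and 47.8, 50.8 and 45.1 FPKM in control cells (adjusted p 0.0118). Slbp had 17.5, 17.95 and 21.2 FPKM in SLE1.2.3 cells and 21.7, 22.1 and 21.1 FPKM in control cells, overlapping, with an adjusted p of 0.162. Npat had 8.88, 9.04 and 9.33 FPKM in SLE1.2.3 cells and 10.2, 9.14 and 9.64 FPKM in control cells, with an adjusted p of 0.406. Of 24 histone chaperones and importers, 3 were called lower and 0 higher: Hat1, which acetylates new H4, Hjurp, which loads the centromeric H3, and Ssrp1 of the FACT complex. Hat1 had 22.5, 22.2 and 24.5 FPKM in SLE1.2.3 cells, against 34.0, 36.9 and 33.7 FPKM in control cells, and fell by 0.58 on the log2 scale (adjusted p 0.0079). It was the only 1 of the 24 to pass without control mouse 3, at 0.0427.

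Replication genes, which share S phase with the histone genes, were called lower in 11 of 40 and higher in 0. Among all tested genes, 5.58% were called lower and 9.65% higher. The median log2 change of the replication genes was -0.29. Pold1, a subunit of DNA polymerase delta, had 17.8, 17.6 and 19.97 FPKM in SLE1.2.3 cells, against 29.4, 29.6 and 30.5 FPKM in control cells (adjusted p 0.0058). Rfc1, of the clamp loader, had 16.6, 15.6 and 17.0 FPKM in SLE1.2.3 cells, against 25.2, 24.6 and 25.04 FPKM in control cells. Control mouse 3 did not stand apart in these genes. Pcna, the sliding clamp, had 138, 132 and 158 FPKM in SLE1.2.3 cells, against 196, 182 and 178 FPKM in control cells (adjusted p 0.0414). Without control mouse 3, 2 of the 40, Pold1 and Rfc1, passed, against 0.773% of all genes called lower. The median was then -0.30, against -0.33 for the histone genes. These medians do not compare like with like, because log2(FPKM + 1) understates the change of low genes, as most histone genes are. Over the 39 tested histone genes, the median ratio of SLE1.2.3 cells to control mice 1 and 2 was 0.663. The count of 11 called replication genes was also 2 without SLE1.2.3 mouse 2, control mouse 1 or control mouse 2. It was 24 without SLE1.2.3 mouse 3. Of 17 mitosis genes, 3 were called lower, Bub1b, Aurkb and Top2a, and 0 without control mouse 3; all 17 changes were negative. The proliferation marker Mki67 had 72.9, 72.1 and 100 FPKM in SLE1.2.3 cells and 95.7, 85.6 and 92.7 FPKM in control cells, with an adjusted p of 0.415.

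Variant histones, most of which are made outside S phase from ordinary polyadenylated messages, had a median log2 change of 0.00. Of 9 tested, H1f0 among them, 1 was called, Macroh2a1, which fell to 73.5, 63.2 and 63.5 FPKM in SLE1.2.3 cells, against 99.5, 111 and 98.3 FPKM in control cells (log2 change -0.62, adjusted p 0.0121). The replacement H3 genes were not called: H3f3a had 106, 101 and 89.8 FPKM in SLE1.2.3 cells and 105, 116 and 105 FPKM in control cells, and H3f3b an adjusted p of 0.437. None of the 9 passed without control mouse 3. H2bu2, a histone gene outside the rule, had 4.31, 4.54 and 2.04 FPKM in SLE1.2.3 cells and 1.68, 1.89 and 1.59 FPKM in control cells, not overlapping but short of the threshold (adjusted p 0.0836). Of 7 housekeeping genes 1 was called, B2m, which was higher, and 0 without control mouse 3. Among all tested genes 15.2% were called, both directions together.

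**Figure D4:**
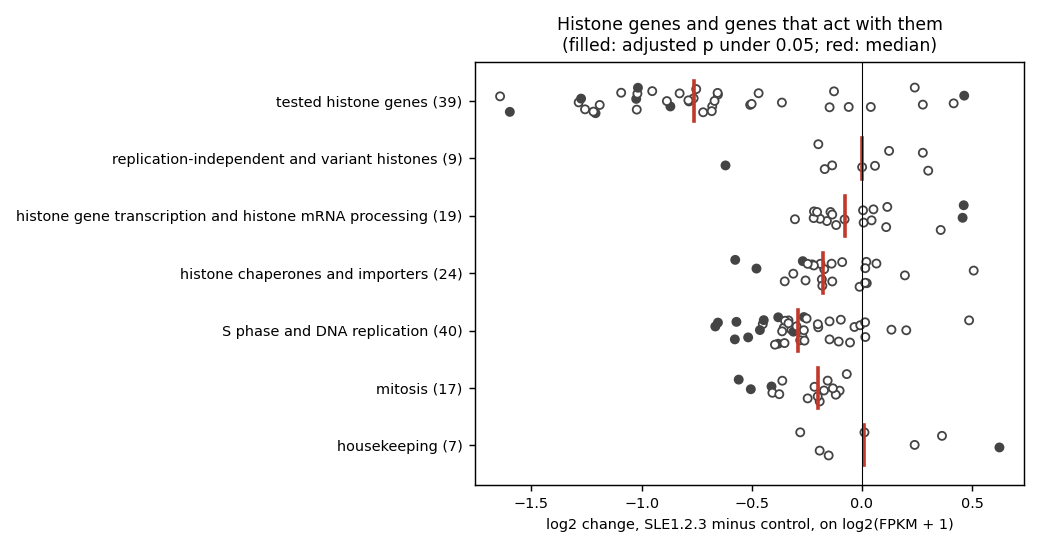
Log2 change, SLE1.2.3 minus control, of each tested gene of the histone set and of 6 other lists, one point per gene with filled points at an adjusted p under 0.05 and a red bar at each median. The histone median of -0.76 lies below those of the S phase list at -0.29, the mitosis list at -0.20 and the chaperones at -0.18. Without control mouse 3, not drawn, the histone median was -0.33, with the S phase list at -0.30 and the mitosis list at -0.27. The chaperones were then at -0.17. The log2(FPKM + 1) scale understates the change of low genes, most histone genes among them, so these medians do not compare like with like. With 0.1 added in place of 1, the histone median over all 6 libraries was -1.05.

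The 23 histone genes under the filter have the values that remain. Of the 62, 7 had a mean under 0.1 FPKM. Just above the filter were Hist1h4m with a mean of 1.05 FPKM, H4c1 with 1.06 and H2ac20 with 1.07; just below it were H3c2 with 0.972, H2bc9 with 0.966 and Hist1h2an with 0.895. H4c14 of the chromosome 3 cluster had 0.154, 0.189 and 0.163 FPKM in SLE1.2.3 cells and 0.085, 0.108 and 2.00 FPKM in control cells, so that control mouse 3 was 20.7 times the mean of the other 2. Of the 62 genes, 27 share more than 50% of their 50-base words with another gene. An exon of another gene is overlapped by 20, 16 of them only on the other strand. Every H2A gene has such a partner on the other strand. The strand setting of the counting is not given in the sources used here, so reads of such antisense partners cannot be told apart.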

How the data were processed

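RNA of 3 SLE1.2.3 and 3 control mice was measured, 1 library per mouse, grouped by the labels. The authors deposited FPKM values for 33300 features with coordinates and lengths. The submitters' processing notes list, without saying what each did, STAR 2.7.3a, featureCounts 2.0.0, cutadapt 2.10, FastQC 0.11.9 and DESeq2 1.24.0, with build mm10. Whether counting used strand, and which annotation, is not given in the sources used here. In short genes with near copies, how the authors' counting treated reads that match several places decides the values.

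From these values, assigned reads per library were recovered from the steps of low FPKM values, where 100% came out whole within 0.15 of a read; 3 reads correspond to 0.0359 to 0.101 per 1000000 reads, for counting error alone. Genes averaging 1 FPKM or more were fitted with limma 3.58.1 in R 4.3.3 (log2(FPKM + 1), which understates the change of low genes, empirical Bayes with trend, genotype as the only term), with Benjamini-Hochberg adjustment over all 11378. The p-values reflect the spread among these 6 cultures, which the labels tie to separate mice. Alternatives were another pseudocount and filter, 4 scalings, limma voom on recovered reads, the mouse number as a block and each library left out. Coordinates of all 62 genes are the same in GENCODE M21, used for strand, overlaps, stem-loops and shared 50-base words. The scripts were tested on simulated data. Members and lists were chosen with earlier results of these data known. Named were the called members, the 12 highest by mean FPKM, the 5 largest changes each way, those next to the filter, up to 4 per other list, and a fixed set; H4c14, H2ac10, H2ac1, H1f10, Hist1h4n and the genes outside the rule were chosen after their values were seen. A gene that the naming rule takes is not reported here.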

Additional observations from a re-analysis of the deposited data

How the results depend on the processing

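Of 1733 genes called in all, no filter left 798, a mean of at least 5 FPKM 1129, and the mouse number as a replicate block 940; leaving out 1 library gave 206 to 3705. Of the 7 histone calls, no filter left 3, a mean of at least 5 FPKM 1 (7 histone genes tested), the replicate block 4, and leaving out 1 library 1 to 7. For the 6 lower calls these were 3, 1 and 1 to 6. Of 39 calls in the other lists, no filter left 19, and leaving out 1 library gave 9 to 56. The log2 ratio of the summed cluster genes, -0.96, ranged from -1.19 to -0.41 with 1 library left out. Quantile normalization called 921 higher and 881 lower in all, against 1098 and 635, and 0 higher and 7 lower among the histone genes. H4c9 turned to -0.0053 under quantile normalization and Hist1h2ao, at -0.13 with all libraries, to 0.0303 without control mouse 3 (range with 1 library left out -0.250 to 0.0303); neither was called, and the cause was not tested. H2bc11 kept its call in all 15 alternatives and Hist1h4m in the 11 that tested it; H1f1 lost it in 3, H2bc12 in 5, H3c1 in 6, H4c4 in 7 and H2bc21 in 8. Same-numbered mice deviated together with r of -0.004, 0.1001 and 0.0914, so the numbers were not taken to pair the mice. Among the called histone genes, low read counts limit Hist1h4m most, with 0 reads in SLE1.2.3 libraries, and then H1f1, with 48, 25 and 16. H2bc12, H3c1 and H4c4 had between 62 and 155 reads in each SLE1.2.3 library. The count of histone genes with control mouse 3 at least 2-fold over control mice 1 and 2 was 22, and 16 with the filter on the other 5 libraries, an alternative chosen after seeing the data.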
